A study of Mus musculus with 8 samples.

Results

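The genes described here are 8 serine protease inhibitor genes of clade A in mouse liver, the 5 Serpina1 copies (Serpina1a, Serpina1b, Serpina1c, Serpina1d and Serpina1e) and the 3 Serpina3 genes Serpina3k, Serpina3m and Serpina3n, out of 22504 genes listed. They were taken by symbol, and the family was chosen from a measured value, because Serpina1c was among the genes with the largest lower FPKM in C 8w + A 4w against C 12w. FPKM counts fragments per length of transcript and per mapped fragments of the library, so levels of different genes can be set side by side. All 8 samples came from Fah-/- mice of the 129S4 strain, in which the enzyme that ends tyrosine catabolism is missing, and which stay healthy on NTBC because it stops that pathway upstream. C 8w (samples 1a, 2a and 3a) was liver after 8 weeks of moderate chronic liver injury on NTBC at 2.5% of the curative dose. C 12w (2e and 3e) was 12 weeks of the same regimen, with the tissue given as tumor. C 8w + A 4w (C096, C097 and C098) was liver after 8 weeks of moderate chronic injury followed by 4 weeks of severe acute injury with NTBC withdrawn. There was no uninjured or Fah-sufficient group, and no age or sex is given.

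Alpha-1 antitrypsin, the product of Serpina1, is made mainly by hepatocytes and secreted into plasma, where it traps neutrophil elastase and related proteases. A serpin offers a protease its exposed reactive centre loop as bait, and once the loop is cut the protease is carried across the serpin and locked in an inactive complex. Mice carry several Serpina1 copies, whose number differs between inbred strains, and a Serpina3 family expanded relative to the human gene, which encodes alpha-1 antichymotrypsin. Serpina3k encodes the plasma inhibitor contrapsin, and Serpina3n is an acute phase gene of liver and other tissues.

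The samples set limits on every value below. The C 8w and C 12w samples carry 1 series of sample codes and the C 8w + A 4w samples another, so injury and code series cannot be told apart in any comparison with C 8w + A 4w. Alb, the albumin gene, was listed at 0 in all 5 chronic injury samples and at an FPKM of 12946 to 16950 in C 8w + A 4w, so a listed 0 here can be a failed estimate. The extraction text in the labels speaks of retina. Of 8 retina markers 7 stayed under an FPKM of 1 in all 8 samples, and Rcvrn, Crx and Rpe65 were at 0 in all, whereas the summed FPKM of 7 hepatocyte markers was 9323 to 29420 (Alb included). Ddx3y and Eif2s3y of the Y chromosome were listed at 0 in 6 samples and between 10.2 and 26.7 in C097 and C098. Fah itself ranged from 13.5 to 16.8 over the chronic samples and from 5.02 to 6.36 over those with severe injury, and without a Fah-sufficient group this does not check the genotype. The number of reads per sample is not known from FPKM.

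The members are close relatives, and their sequences decide how well a read can be given to a single copy. The coding sequences of the 5 Serpina1 copies were each 1242 bases long in the mouse reference annotation and differed at 86 positions (6.92%). Serpina1a and Serpina1c were the closest pair, 98.5% identical with 19 differing bases, and Serpina1b and Serpina1e, like Serpina1d and Serpina1e, were the farthest, 96.3% identical with 46. The most varied stretch of 60 bases ran from base 1102 to base 1161 and held 18 of the differing positions. It starts at the end of the hinge of the reactive centre loop (bases 1087 to 1104) and so covers the bait that a protease meets. It is shown because it is where a read can best tell the copies apart, with the positions that differ between copies in capitals.
Serpina1a: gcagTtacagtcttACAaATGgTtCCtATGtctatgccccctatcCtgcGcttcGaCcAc
Serpina1b: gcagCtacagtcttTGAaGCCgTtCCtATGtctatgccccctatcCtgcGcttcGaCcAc
Serpina1c: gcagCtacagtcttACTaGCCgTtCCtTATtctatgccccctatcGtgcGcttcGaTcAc
Serpina1d: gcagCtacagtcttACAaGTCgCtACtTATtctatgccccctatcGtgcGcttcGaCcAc
Serpina1e: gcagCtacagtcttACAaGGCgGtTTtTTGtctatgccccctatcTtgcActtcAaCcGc

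The opposite case is a run of 226 coding bases (337 to 562) that is the same in all 5 copies, where no read can be assigned.
Serpina1, all copies: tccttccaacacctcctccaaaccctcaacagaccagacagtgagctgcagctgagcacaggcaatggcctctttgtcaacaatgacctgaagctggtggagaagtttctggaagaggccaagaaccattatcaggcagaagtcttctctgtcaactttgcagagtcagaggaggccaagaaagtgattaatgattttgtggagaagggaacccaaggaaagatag

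The transcripts of each member were cut into all windows of 50 bases, and the share of windows that also occur in another annotated gene was counted. That share was 79.3% for Serpina1c, 57.6% for Serpina1a, 50.9% for Serpina1d, 34.6% for Serpina1e and 29.5% for Serpina1b. It was lower for the Serpina3 genes, at 19.1% for Serpina3m, 14.0% for Serpina3k and 6.90% for Serpina3n. With windows of 100 bases, 69.3% of Serpina1c and 0.204% of Serpina3n was still shared. Serpina1c thus has the least sequence of its own, and 69.4% of its windows of 50 bases also stand in Serpina1a. A gene outside the set, Gm8893, held 36.6% of the Serpina1c windows, and B430119L08Rik held 23.8%. How the submitters divided reads between copies is not given in the sources used here, and the reference is of another strain than these mice, so every level of a single Serpina1 copy is uncertain to that extent.

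**Figure D1:**
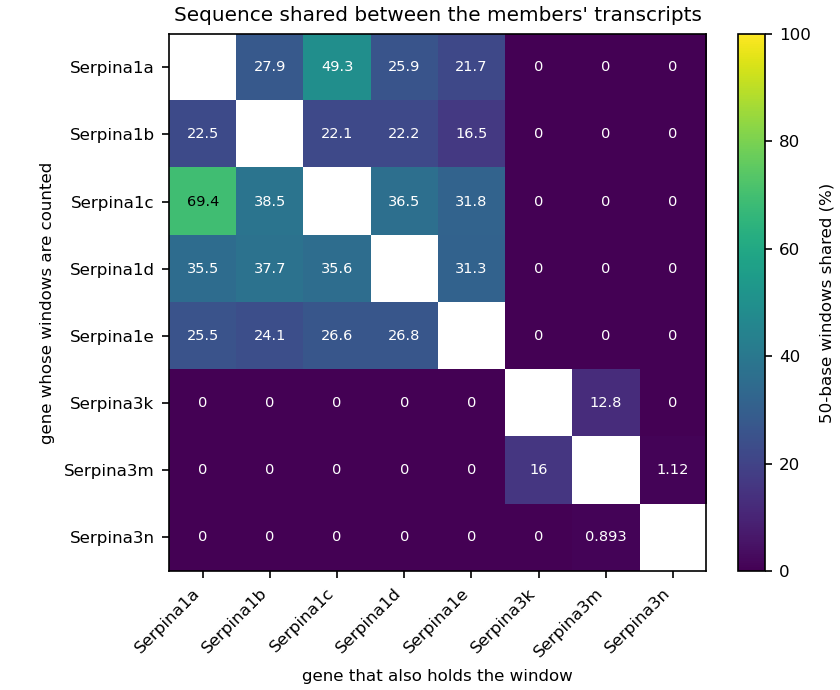
Each cell gives the percentage of the 50-base windows of the gene in the row that also occur in the gene in the column, in annotated mouse transcripts (0 to 100% colour scale, diagonal left blank). The Serpina1 copies share windows with each other, most between Serpina1c and Serpina1a (69.4%), and no window with the Serpina3 genes.

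The 8 genes differed widely in level and in spread. The highest FPKM among the 8 samples was 264-fold the lowest for Serpina1c, 118-fold for Serpina1e, 39.3-fold for Serpina1d and 19.8-fold for Serpina1a. The same ratio was 5.63 for Serpina1b, 5.24 for Serpina3k, 4.19 for Serpina3n and 2.35 for Serpina3m. Serpina1b, the Serpina1 copy with the highest FPKM in every sample, was also the copy with the narrowest range. Sample 2e of C 12w held the highest FPKM of Serpina1a, Serpina1b, Serpina1c and Serpina1d.

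**Figure D2:**
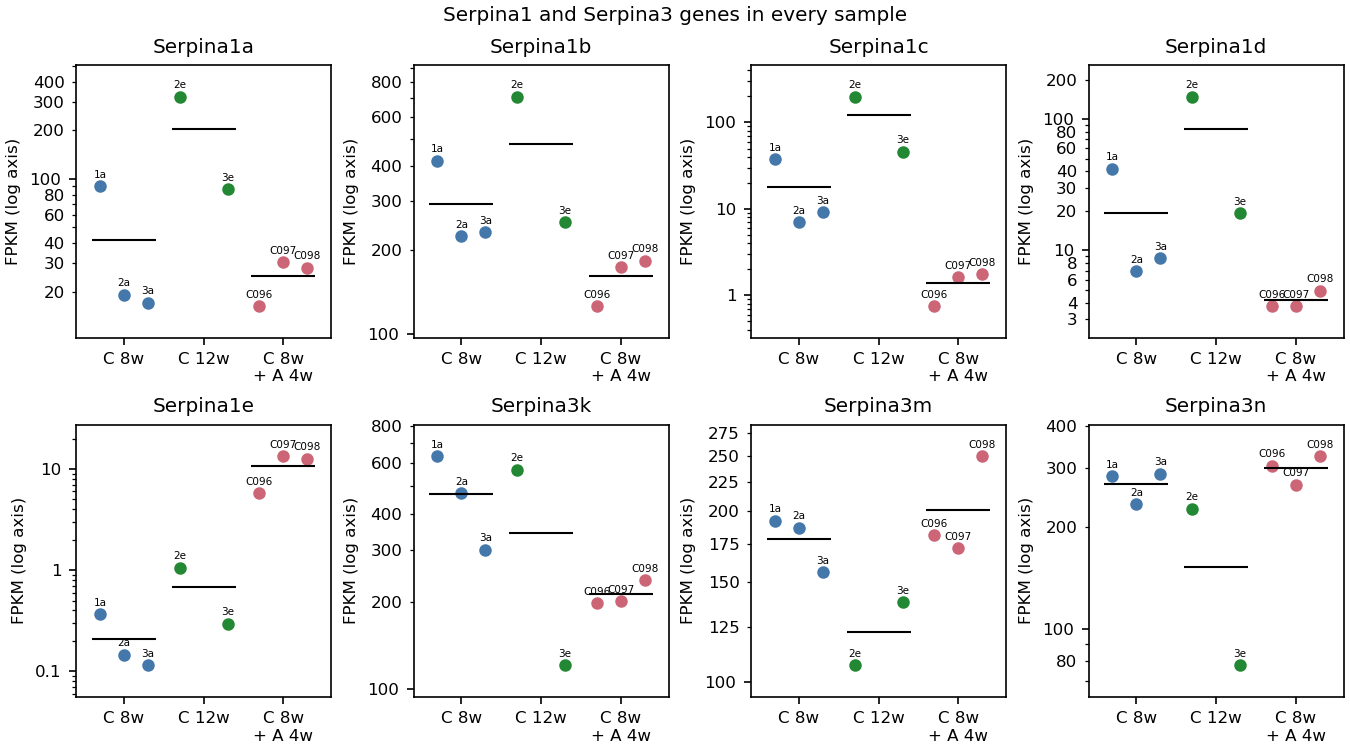
FPKM of each of the 8 genes (log axes, each with its own range) in the 8 samples, with the sample code above each point and a horizontal line at the group mean. Serpina1c is lowest and Serpina1e highest in the 3 C 8w + A 4w samples, and 2e stands above 3e for every gene but Serpina3m.

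Serpina1c had the widest range, and it was chosen for its low level in C 8w + A 4w against C 12w, so its values are a description and were not tested. In C 8w its FPKM was 37.5 in 1a, 7.07 in 2a and 9.13 in 3a. In C 12w it was 199 in 2e and 45.8 in 3e. In C 8w + A 4w it was 0.752 in C096, 1.62 in C097 and 1.77 in C098. The C 12w samples were both above all C 8w samples, and the C 8w + A 4w samples were all below them, with no overlap between any 2 groups. The C 12w mean was 122 ± 108 (SD, n = 2), that of C 8w was 17.9 ± 17.0 (SD, n = 3), and that of C 8w + A 4w was 1.38 ± 0.55 (SD, n = 3). On the log2(FPKM + 1) scale the difference was -5.37 for C 8w + A 4w against C 12w, and it ranged from -6.42 to -4.33 as each sample was left out in turn. It was -2.65 for C 8w + A 4w against C 8w (-3.08 to -1.95, smallest in size without 1a) and 2.72 for C 12w against C 8w (1.67 without 2e to 3.77 without 3e).

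All 5 Serpina1 copies had their highest C 8w value in sample 1a. Serpina1a was at 90.0 in 1a against 19.2 in 2a and 17.2 in 3a, a 5.25-fold spread within C 8w. Serpina1d was at 42.0 in 1a against 6.97 in 2a and 8.74 in 3a, a 6.03-fold spread. Serpina1c itself spanned 5.31-fold over the same mice, Serpina1e 3.20-fold and Serpina1b 1.86-fold. Serpina3k spanned 2.10-fold and Serpina3m and Serpina3n each 1.23-fold. The excess of sample 1a thus differed in size between the copies. Within C 12w, Serpina1a was at 322.5 in 2e and 86.3 in 3e, and Serpina1d at 148 and 19.3.

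In C 8w + A 4w, Serpina1b and Serpina1d lay below every chronic sample and Serpina1a did not. Serpina1a was at 16.3 in C096, 30.4 in C097 and 28.1 in C098, which lies across the range of the C 8w samples 2a and 3a. Serpina1d was at 3.78, 3.77 and 4.94 in the same samples, under the lowest chronic value of 6.97. Serpina1b was at 126, 174 and 183 in C 8w + A 4w, against 418, 225 and 232 in C 8w and 709.6 and 252 in C 12w. In limma's test over all genes none of these differences from C 8w passed an adjusted p of 0.05. The log2 fold change was -0.36 (95% interval -1.89 to 1.18, adjusted p = 0.696) for Serpina1a, -0.81 (-1.71 to 0.08, adjusted p = 0.132) for Serpina1b and -1.54 (-3.34 to 0.26, adjusted p = 0.151) for Serpina1d. Without sample 1a the Serpina1a difference turned to 0.39.

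Serpina1e went the other way. This copy was listed at a low FPKM in chronic injury. The values were 0.366 in 1a, 0.145 in 2a, 0.114 in 3a, 1.06 in 2e and 0.295 in 3e. Serpina1e was at 5.73 in C096, 13.5 in C097 and 12.6 in C098. The C 8w + A 4w samples thus all lay above all chronic samples. The chronic samples are also those of the other code series, with Alb listed at 0. Whether the low Serpina1e values reflect the way reads were assigned was not tested. Serpina1e rose in C 8w + A 4w against C 8w by 3.19 on the log2(FPKM + 1) scale (SE 0.30, 95% interval 2.51 to 3.87, adjusted p = 0.000105), and the group means differed 50.8-fold in FPKM. The gene passed the floor on low values, an FPKM of 1 in at least 4 samples, only through the 3 severe injury samples and 2e, so the floor favoured a difference. In the limma fit with no floor, over 17762 genes, its adjusted p was 0.000977. The 2 samples with Y-linked signal were also the highest for Serpina1e. Without them the log2 fold change was 2.48 (adjusted p = 0.00335), resting on C096 alone in its group and on the assumption that it varies like the chronic samples. C 12w and C 8w differed by 0.44 (adjusted p = 0.362), and the C 8w + A 4w values against C 12w differed by 2.75, given without a test.

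The summed FPKM of the 5 copies was taken as a second reading, since reads from identical stretches can be assigned to any copy. It is not free of that assignment, because FPKM divides by transcript lengths that differ between copies and because genes such as Gm8893 share the same stretches. The Serpina1 sum was 588 in 1a, 258 in 2a and 268 in 3a, 1380.4 in 2e and 404 in 3e, and 153 in C096, 223 in C097 and 231 in C098. The severe injury samples were thus all below the chronic ones, by less than Serpina1c alone, with the nearest values at 231 and 258. The mean sum of C 8w was 371 ± 188 (SD, n = 3), that of C 12w was 892 ± 690.4 (SD, n = 2), and that of C 8w + A 4w was 202 ± 43.1 (SD, n = 3). Sums were not tested.

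The make-up of that sum differed between the groups. Serpina1b gave 71.1%, 87.1% and 86.9% of it in C 8w, 51.4% and 62.4% in the C 12w samples, and 82.6%, 77.9% and 79.4% in C 8w + A 4w. Serpina1c gave 6.38%, 2.74% and 3.41% in C 8w, 14.4% and 11.3% in the C 12w samples, and 0.493%, 0.726% and 0.768% in C 8w + A 4w. Serpina1e gave under 0.08% in every chronic sample and 3.75%, 6.03% and 5.46% in C 8w + A 4w. Serpina1b therefore made up the larger share in all 8 samples, while Serpina1c and Serpina1e changed places as minor copies.

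The ratio of Serpina1c to Serpina1a, its nearest copy in sequence, was 0.417, 0.368 and 0.532 in C 8w and 0.617 and 0.530 in C 12w. It was 0.0461, 0.0534 and 0.0630 in C 8w + A 4w. The ratio of Serpina1e to Serpina1a ran from 0.00327 to 0.00758 over the 5 chronic samples and from 0.351 to 0.448 over the 3 severe injury samples. Within each of the 2 code series the ratio of Serpina1c to Serpina1a varied less than the Serpina1a level, and the ratio differed between the code series as it did between severe and chronic injury, which cannot be told apart.

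**Figure D3:**
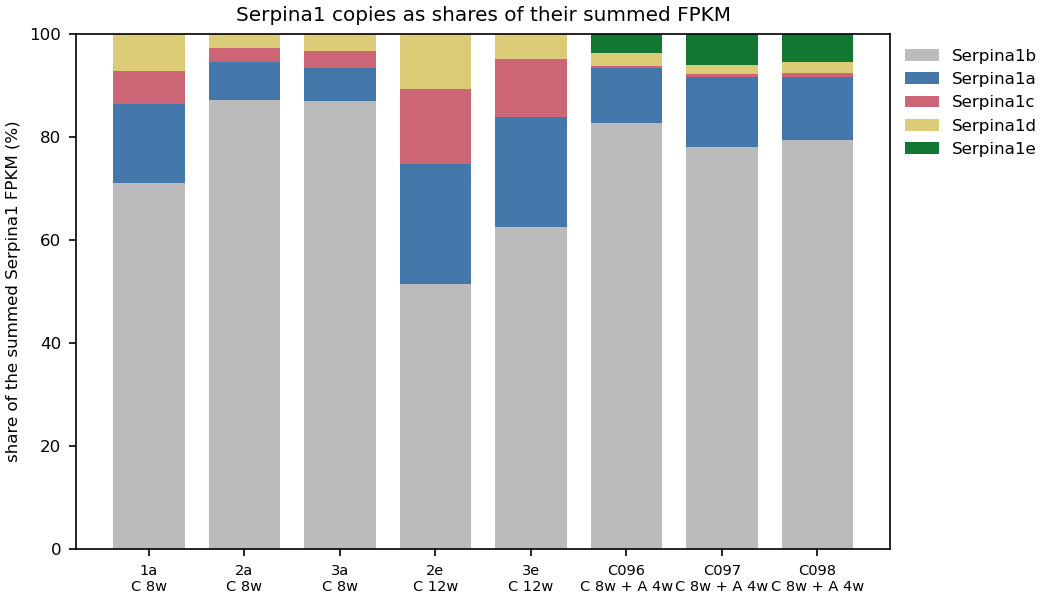
Stacked bars give each Serpina1 copy as a percentage of the summed Serpina1 FPKM in each of the 8 samples, ordered by group. Serpina1b is the largest share throughout (51.4% to 87.1%), the Serpina1c share is largest in C 12w (14.4% and 11.3%), and Serpina1e is visible only in C 8w + A 4w (3.75% to 6.03%).

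The 3 Serpina3 genes were all abundant and had narrower ranges. Serpina3k, the contrapsin gene, was at 633 in 1a, 472 in 2a and 302 in 3a, at 567 in 2e and 121 in 3e, and at 198, 201 and 237 in C096, C097 and C098. The severe injury samples lay below all C 8w samples but between the C 12w samples. The log2 fold change against C 8w was -1.08 (95% interval -2.24 to 0.08, adjusted p = 0.121).

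Serpina3m was the steadiest member. Its FPKM was 192, 187 and 156 in C 8w, 107 and 138 in the C 12w samples, and 181, 172 and 251 in C 8w + A 4w. The C 12w samples were the lowest, and the other groups overlapped. The log2 fold change was 0.16 (95% interval -0.26 to 0.58, adjusted p = 0.521) for C 8w + A 4w against C 8w and -0.54 (-1.02 to -0.07, adjusted p = 0.0933) for C 12w against C 8w.

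Serpina3n was at 284, 235 and 289 in C 8w, at 227 in 2e and 77.8 in 3e, and at 305, 268 and 326 in C 8w + A 4w. It was lowest in C 12w, where 2e lay just under the C 8w samples and 3e far under them. The log2 fold change was 0.16 (95% interval -0.61 to 0.92, adjusted p = 0.737) for C 8w + A 4w against C 8w and -1.004 (-1.86 to -0.15, adjusted p = 0.0893) for C 12w against C 8w. Serpina3k gave 57.0%, 52.8% and 40.4% of the summed Serpina3 FPKM in C 8w, 62.9% and 35.9% in the C 12w samples, and 28.9%, 31.4% and 29.1% in C 8w + A 4w, where Serpina3n gave the most (40.1% to 44.6%). The Serpina3 sum itself was 746 to 1109.9 in C 8w, 902 in 2e and 337 in 3e, and 641 to 813 in C 8w + A 4w.

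The Serpina3 genes are better separated by sequence than the Serpina1 copies. Over aligned coding bases Serpina3k and Serpina3m were 91.7% identical, Serpina3m and Serpina3n 85.2%, and Serpina3k and Serpina3n 83.4%, while Serpina1a and Serpina3n were 60.6% identical. Their reactive loop stretches are shown because the bait for the protease lies there. The capitals mark the part between the conserved hinge and the conserved end, 42 bases in Serpina3k and 48 in Serpina3m and Serpina3n.
Serpina3k: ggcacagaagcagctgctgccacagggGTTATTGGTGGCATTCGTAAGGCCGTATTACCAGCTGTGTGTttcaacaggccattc
Serpina3m: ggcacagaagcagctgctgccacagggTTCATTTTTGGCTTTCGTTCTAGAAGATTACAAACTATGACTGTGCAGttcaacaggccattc
Serpina3n: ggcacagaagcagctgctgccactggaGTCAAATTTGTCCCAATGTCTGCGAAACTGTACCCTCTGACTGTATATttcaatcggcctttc

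Counted over the 7 members other than Serpina1c, severe injury against C 8w gave 1 rise (Serpina1e, which the floor favoured) and no fall past the adjusted threshold, and the same 1 and 0 at an unadjusted p under 0.05. Of all 10244 genes tested in that comparison 25.3% rose and 14.1% fell (31.7% and 17.8% at the unadjusted p). The median log2 fold change of the 7 members was -0.36, against 0.12 over all genes. C 12w against C 8w gave no rise and no fall among them in limma's test, where 12.2% of all genes rose and 6.98% fell. At an unadjusted p under 0.05, 1 was higher (Serpina1a, log2 fold change 2.38, adjusted p = 0.0574) and 2 were lower (Serpina3m and Serpina3n), against 24.7% and 12.8% of all genes. The member median was 0.44, again against 0.12. Both comparisons use the same C 8w samples. Scaling each sample by its median ratio took the all-gene medians to 0.0050 and 0.0085 and changed the split of all genes from 2591 higher and 1443 lower to 2013 and 2064 for severe injury, and from 1247 and 715 to 976 and 1081 for C 12w.

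The calls of the falls depended on the C 12w pair, whose spread enters the shared error of the fit. When C 12w was kept out of the fit, or when either C 12w sample was left out, 3 members fell past the threshold, with adjusted p of 0.0290 for Serpina1b, 0.0463 for Serpina1d and 0.00760 for Serpina3k in the fit of 2 groups, where 18.5% of all genes fell. For C 12w against C 8w the 2 tumor samples pulled apart. Each of the next fits leaves a single C 12w sample, assumed to vary like the other groups. Without 3e, Serpina1a, Serpina1b and Serpina1d were past the threshold as higher (log2 fold changes 3.33, 1.34 and 3.32), where 8.58% of all genes were. Without 2e, Serpina3k and Serpina3n were past it as lower (-1.88 and -1.77), where 11.1% of all genes were.

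**Figure D4:**
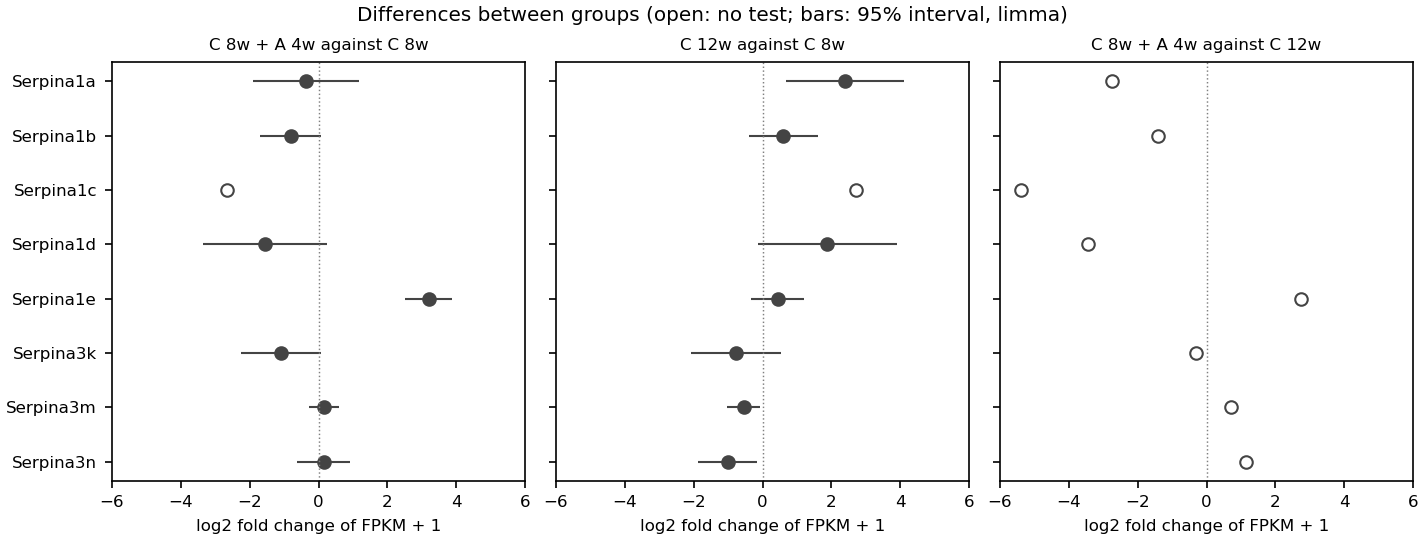
Log2 fold change of FPKM + 1 for each gene in the 3 comparisons, with filled points and 95% intervals from limma where a test was run and open points where the value is a description. Serpina1e in C 8w + A 4w against C 8w (3.19) is the value whose interval lies farthest from 0.

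The region around the start of the members was read for the letters of C/EBP and STAT sites. RefSeq promoter windows of 300 bases, which end 50 bases after the annotated start (GRCm38.p6), matched 6 of the members, the 5 Serpina1 copies and Serpina3n, and all 32851 windows were searched on both strands. The looser C/EBP letters TTGCNNAA, present in 10.8% of all windows, stood in 4 of the 5 Serpina1 windows, in Serpina1a downstream of the start, and in neither that of Serpina1c nor that of Serpina3n. The C/EBP palindrome TTGCGCAA (0.183% of all windows, a subset of the former) and the STAT letters TTCNNNGAA (8.30%) and TTCCNGGAA (1.15%, a subset of TTCNNNGAA) matched none of the 6 windows. These are matches of letters in the reference, not measured binding.

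Among transcription factor genes known to act on Serpina1 in liver, Nr1h4 (a bile acid receptor, -0.69, adjusted p = 0.0276) and Cebpa (-0.47, adjusted p = 0.0127) fell in severe injury against C 8w. Hnf4a, a master factor of the hepatocyte, was at 90.4 to 93.2 in C 8w, 99.2 to 104 in C 12w and 81.2 to 85.3 in C 8w + A 4w, with a log2 fold change of -0.14 (adjusted p = 0.306) for severe injury against C 8w. In C 12w against C 8w, Foxa3 rose by 1.20 (adjusted p = 0.0217) and Cebpb fell by 1.26 (adjusted p = 0.0112).

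The members lie among other clade A serpins on chromosome 12, with Serpina1b, Serpina1d, Serpina1a, Serpina1c and Serpina1e next to each other and the Serpina3 genes at the far end of the cluster. Of 18 other clade A genes 16 were in the table and 7 passed the floor. In severe injury against C 8w 1 of these rose and 3 fell (median -0.24), beside 25.3% and 14.1% of all genes. Serpina6, which encodes the carrier of glucocorticoids in plasma, fell by 3.23 (adjusted p = 0.000972), from 204 to 268 in C 8w to 14.4 to 50.9. Serpina11 fell by 1.66 (adjusted p = 0.000339) and Serpina10, the inhibitor that acts with protein Z, fell by 1.24 (adjusted p = 0.00689). Serpina5, the protein C inhibitor, rose by 1.92 (adjusted p = 0.000197), from 0.952 to 1.28 in C 8w to 5.58 to 10.2. In C 12w against C 8w none of the 7 passed the threshold (median 0.36). Serpina1e and Serpina5, both low in chronic injury, were thus the clade A genes that passed the test as higher.

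**Figure D5:**
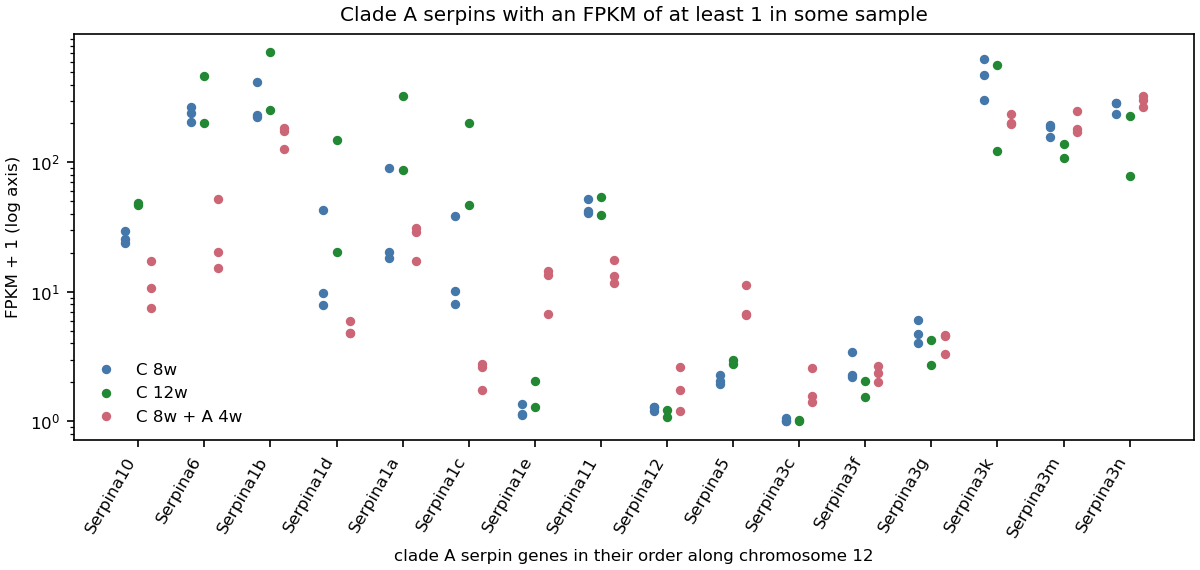
FPKM + 1 (log axis) of the 16 clade A serpin genes of the chromosome 12 cluster that reached an FPKM of 1 in some sample, placed in their order (Serpina7, which is not in the cluster, is left out), with 1 point per sample coloured by group. The C 8w + A 4w points lie under the chronic points for Serpina6, Serpina10, Serpina11, Serpina1b, Serpina1c and Serpina1d and above them for Serpina1e, Serpina5 and the barely expressed Serpina3c.

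Other protease inhibitors of plasma were read from a list. Of 20 tested, 1 rose and 12 fell in severe injury against C 8w (median -0.84), beside 25.3% and 14.1% of all genes. In C 12w against C 8w 7 rose and 1 fell (median 0.49), beside 12.2% and 6.98%. Itih4, of the inter-alpha-trypsin inhibitor family, fell by 3.35 (adjusted p = 0.000252), and Serpind1, heparin cofactor II, fell by 2.59 (adjusted p = 0.00118).

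Among the proteases that alpha-1 antitrypsin is known to trap, the neutrophil genes Elane, Prtn3 and Ctsg were listed at or under an FPKM of 0.38 in all 8 samples, with listed zeros among them that may be failed estimates. Of 5 other serine protease genes that passed the floor, 3 fell in severe injury against C 8w, Hgfac (hepatocyte growth factor activator, -2.92, adjusted p = 0.0033), Tmprss6 (-1.35, adjusted p = 0.00122) and Hpn (hepsin, -0.84, adjusted p = 0.000704). Tmprss2 rose by 1.07 (adjusted p = 0.000264). None of the 5 passed the threshold in C 12w against C 8w. Of all genes 25.3% rose and 14.1% fell in severe injury against C 8w.

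Interleukin 6 acts through gp130 and Stat3 to raise acute phase genes in the hepatocyte, and growth hormone acts through Stat5. Il6 was at or under 0.04 in all samples, and Stat3 was at 14.0 to 16.1 in C 8w, 17.1 to 17.4 in C 12w and 14.0 to 15.3 in C 8w + A 4w. Of 13 tested genes of interleukin and growth hormone signalling, 5 rose in severe injury against C 8w (Il1r1, Socs3, Jak2, Il6st and Jak1). Another 5 fell (Ghr, Stat5a, Tyk2, Stat5b and Il6ra), and the median of the 13 was -0.07. Il1r1, the interleukin 1 receptor, rose by 0.97 (adjusted p = 0.00831) and the feedback inhibitor Socs3 by 0.87 (adjusted p = 0.0228), while the growth hormone receptor gene Ghr fell by 1.37 (adjusted p = 0.00178). In C 12w against C 8w 2 fell, Lifr and Stat5a, and none rose. The shares of all genes were 25.3% higher and 14.1% lower in severe injury, and 12.2% and 6.98% in C 12w.

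Acute phase genes did not rise together. Of 18 tested, 9 fell and 1 rose in severe injury against C 8w (median -0.99), beside 14.1% and 25.3% of all genes. In C 12w against C 8w 2 rose and 3 fell (median 0.06), beside 12.2% and 6.98%. Crp fell by 3.05 (adjusted p = 5.25e-05), Saa1 fell by 2.29 (adjusted p = 0.0183) and Orm2 fell by 2.08 (adjusted p = 0.000434). Lcn2, an iron-binding acute phase protein, was the gene that rose, by 1.86 (adjusted p = 0.000496). Beside these, Serpina3n and Serpina3m had intervals that reached from -0.61 to 0.92 and from -0.26 to 0.58.

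Alpha-1 antitrypsin is folded in the endoplasmic reticulum, where misfolded chains are trimmed and sent for degradation and folded ones are carried to the Golgi. Of 17 genes of these steps tested, 7 rose and 1 fell in severe injury against C 8w (median 0.37). The shares of all genes were 25.3% and 14.1%. In C 12w against C 8w 5 rose and none fell (median 0.39), beside 12.2% and 6.98% of all genes. Edem2 rose by 1.15 (adjusted p = 0.000648) and Edem3 by 0.98 (adjusted p = 0.00129), both of the mannose trimming step, and the chaperone gene Hspa5 by 1.12 (adjusted p = 0.03). Surf4, a cargo receptor, rose by 0.68 (adjusted p = 0.00705). After median-ratio scaling 4 of the 17 rose in severe injury and 3 in C 12w. Os9, a lectin of the degradation step, fell by 0.48 (adjusted p = 0.0137).

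Markers of other cells in the tissue were read beside these values. None of 8 macrophage markers passed the threshold in either comparison, and their summed FPKM was 157 to 188 in C 8w, 137 to 176 in C 12w and 123 to 438 in C 8w + A 4w, with C097 highest. Of 12 neutrophil markers 7 stayed under an FPKM of 1 in all 8 samples, the 2 tested did not pass, and the summed FPKM of all 12 was 3.71 to 16.6 in C 8w, 6.88 to 16.8 in C 12w and 8.90 to 11.6 in C 8w + A 4w. Of 4 cholangiocyte markers tested, Epcam rose by 1.83 in severe injury (adjusted p = 0.00577), and Sox9 (2.44, adjusted p = 0.0173) and Epcam (1.42, adjusted p = 0.0471) rose in C 12w. The summed FPKM of all 6 cholangiocyte markers was 5.16 to 6.71 in C 8w, 9.77 in 2e, 44.0 in 3e and 11.2 to 13.8 in C 8w + A 4w. Of 6 hepatocyte markers tested, Apoa1 rose (1.04, adjusted p = 0.0107) and Cps1 fell (-1.10, adjusted p = 0.0221) in severe injury, and Apob rose in C 12w (0.88, adjusted p = 0.0329). In whole tissue fewer cells of a type and less RNA per cell cannot be told apart, and the part of cell make-up in the member values was not tested.

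Genes with the pattern most like a member were found by the root mean square difference of centred log2(FPKM + 1) over the 8 samples, among 10221 genes. For Serpina1c they were C8a (0.633), C8b (0.714) and Ces3a (0.751), where the spread of Serpina1c about its own mean was 2.25 on the same scale. C8a and C8b encode chains of a terminal complement component and Ces3a a liver carboxylesterase. The C8a level was 11.0, 7.95 and 5.61 in C 8w, 99.2 and 46.9 in the C 12w samples, and 0.776, 2.24 and 1.10 in C 8w + A 4w. For Serpina3n the nearest were Churc1 (0.127), Sulf2 (0.170) and 1810055G02Rik (0.202), where its own spread was 0.619, and Churc1 was at 9.06 in 3e against 23.0 to 36.3 in the other samples. Both sets were picked for likeness on the same samples and were not tested.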

How the data were processed

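RNA was sequenced from 8 samples in 3 groups (TruSeq RNA kit). The authors deposited a single table of FPKM values per gene, and none of its sample columns belonged to another series. The processing notes of the submitters name Bowtie 0.12.2 and mm8 without a role, and the step that made the FPKM, with its treatment of multiply mapping reads, is not given in the sources used here. Gene IDs were paired with symbols for 22314 of 22504 genes. No whole-read steps were found in the low values, so no count test was run. The study treats the samples as single animals.

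The 10244 genes that reached FPKM 1 in 4 or more samples were put on the log2(FPKM + 1) scale, which understates changes of low genes, and fitted with limma 3.58.1 in R 4.3.3 (3 groups, shared spread, trended eBayes, two-sided, Benjamini-Hochberg adjustment over all genes, threshold 0.05). The procedure was tested on simulated data. Fold changes against C 8w share its samples.

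The members and gene lists were chosen with earlier results of these data known. Serpina1c in every comparison, and every member in C 8w + A 4w against C 12w, are given without a test, because that contrast chose the family. Named genes are the 8 members, Fah, up to 3 called genes per list with the largest absolute log2 fold change and no overlap between groups, and the 3 nearest in pattern to Serpina1c and Serpina3n. Other names complete small counts or were added after their values were seen. Of the lists, Serpina3h, Serpina4-ps1, Klkb1, Cebpd and Tf were not analysed here. Some genes of the lists and some motifs searched are not reported here. Shared windows were counted on both strands in GENCODE M21 transcripts. Promoter windows and gene order came from RefSeq (GRCm38.p6), not the build named by the submitters. Serpina3 coding sequences were aligned globally with Biopython 1.88.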

Additional observations from a re-analysis of the deposited data

How the results depend on the processing

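Depth is unknown from FPKM, C 12w has 2 samples, and single Serpina1 copies share 29.5% to 79.3% of their 50-base windows with other genes. Member values were therefore recomputed under other settings. Serpina1e stayed past the threshold in C 8w + A 4w against C 8w under each setting that kept it. Its adjusted p in limma's test ran from 3.51e-05 to 0.00102 as each sample was left out. These fits kept the 10244 genes that met the floor over all 8 samples. Serpina1e met it only through the 3 severe injury samples and 2e, so the fits without 1 of these do not test that choice. With a floor of FPKM 10 Serpina1e was not tested, which left 0 members called higher. Members called lower there were 3 in the fit of only the 2 groups and 0 to 3 as each sample was left out, 3 without C 12w replicate 2 (2e) or replicate 3 (3e), each beside 18.5% of all genes lower, and 1 was called higher in each of those fits. In C 12w against C 8w, 1 member (Serpina1a) was called higher under total scaling, 1 under quantile normalization, 0 to 3 as each sample was left out (1 without C 8w replicate 1, 3 without 3e beside 8.58% of all genes) and 0 to 2 lower (2 without 2e beside 11.1%). Leaving out samples moved the log2 ratio of the Serpina1 sum from 0.23 to 2.01 for C 12w against C 8w and from -2.80 to -1.02 for C 8w + A 4w against C 12w, and of the Serpina3 sum from -1.43 to -0.0047 and from -0.35 to 1.07, the extremes being the fits without 2e or 3e. Directions turned as samples were left out for Serpina1a in C 8w + A 4w against C 8w (-0.77 to 0.39, positive without 1a), Serpina3m there (-0.0085 to 0.26, negative without C098), Serpina1b in C 12w against C 8w (-0.15 to 1.34, negative without 2e) and Serpina3k there (-1.88 to 0.34, positive without 3e). The untested Serpina3k difference in C 8w + A 4w against C 12w ran from -1.42 without 3e to 0.80 without 2e. The cause was not tested. A replicate block on the shared numbers 2 and 3 of C 8w and C 12w called 1 member higher (Serpina1a, adjusted p = 0.0120) and 0 lower, with 150 genes higher and 102 lower in all. The labels of these samples share only a number. The differences between numbers 2 and 3 had a correlation of -0.189 across 10244 genes, which are not independent. That value cannot show whether the samples were paired. The crossed pairing, added after seeing the data, called 11 genes higher and 5 lower. A pair of settings for the Y-linked samples, also added then, kept 1 member higher and 0 lower in severe injury. Median-ratio scaling changed calls in lists. In C 12w they became 4 plasma inhibitors and 1 cholangiocyte marker higher and 4 genes of interleukin and growth hormone signalling lower. In severe injury they became 3 genes of that signalling list higher and 2 hepatocyte markers lower. Calls over all genes moved by over 1.5 times in either direction in these fits, beside the main 2591 higher and 1443 lower for C 8w + A 4w against C 8w and 1247 and 715 for C 12w against C 8w. The first became 1022 and 822 with a floor of FPKM 10 (3902 genes tested), 1934 and 2171 under quantile normalization, 1701 and 1100 with a term for the Y-linked samples, 1485 and 1026 without them, and 1541 and 928 without 1a. The second became 398 and 453 with that floor, 976 and 1081 under median-ratio scaling, 381 and 296 without 1a, 587 and 354 without 2a, 446 and 274 without 3a, and 2561 and 1141 without 2e, beside the pairings above.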
